A study of Mus musculus with 8 samples.

Results

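Proteasome genes were examined in epididymal white adipose tissue of Abhd15 knockout (KO) and wild type (WT) mice. The genes were chosen by name: every gene whose single annotated symbol begins with Psma, Psmb, Psmc, Psmd or Psme followed by a number. The rule found 44 of the 22180 genes with a single symbol on the array. Of these, 42 encode parts, activators or assembly factors of the proteasome, and Psmc3ip and Psme3ip1 share only the naming. A gene with several probe sets was represented by its brightest one, judged by the mean of the 8 arrays. The alpha subunit Psma4 is not among the 44, because its probe sets carry several symbols.

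The proteasome is the protease complex that breaks down proteins tagged with ubiquitin. Its core particle is a stack of rings, with Psma subunits gating the entrance and Psmb subunits lining the chamber, of which Psmb5, Psmb6 and Psmb7 cut protein chains. A regulatory particle of Psmc ATPases and Psmd subunits binds the ubiquitin chain, removes it and feeds the unfolded protein into the core. Under interferon gamma, and constantly in immune cells, Psmb8, Psmb9 and Psmb10 replace Psmb5, Psmb6 and Psmb7 in newly built particles (the immunoproteasome), and Psme1 and Psme2 form an alternative cap. In adipocytes the proteasome turns over, among others, regulators of adipocyte identity and of lipid storage.

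The study compared 5 Abhd15 KO mice with 3 WT mice, all males on a C57BL/6J background that were fed normal chow. At 14 weeks of age they were fasted overnight, refed for 1 h and killed, and the visceral fat pad beside the epididymis was taken. Each array measured 1 mouse, from 200 ng of total RNA. ABHD15 is an adipocyte protein linked to phosphodiesterase 3B and the insulin-dependent restraint of lipolysis. The labels do not say how the allele was made or in which cells the gene is lost.

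All values are log2 signals made with RMA (robust multi-array average, which corrects background, normalizes across arrays and summarizes probes), so 1 unit is a doubling of signal. Differences are KO minus WT, from limma fitted over the 11090 genes whose mean signal was at or above the median gene (3.61), which is the level filter used here. The Benjamini-Hochberg adjusted threshold was 0.05. No gene passed it, while 1164 genes (10.5%) had an unadjusted p under 0.05, 4.04% higher and 6.46% lower in KO. Abhd15 itself read 5.77, 6.07, 6.27, 5.60 and 5.75 in KO 1 to KO 5, against 6.36, 6.45 and 6.15 in WT 1 to WT 3 (log2 fold change -0.43, SE 0.170, unadjusted p = 0.0305 and adjusted p = 0.423 in limma), and KO 3 lay within the WT range. Its second, dimmer probe set read 3.33, 3.65, 4.19, 3.21 and 3.31 in KO mice, against 4.13, 4.505 and 4.07 in WT mice, with KO 3 again inside the WT range. The position of its probes relative to the deleted part is not known here, and this value therefore does not check the labels.

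Several arrays stood apart. Over 12 measured germ cell genes of the testis the mean signal was 4.01 in KO 4, 5.26 in WT 1 and 4.48 in WT 2, and 2.93 to 3.39 in the other arrays. One of these genes, Odf1, read high in every array. Over 13 measured genes of the epididymis and seminal vesicle, none above the level filter, the mean was 3.66 in KO 4 and 3.37 in WT 1, and 1.92 to 2.22 in the other arrays. Different genes were raised in KO 4 and WT 1. Lcn5, Spint4 and Eppin read 8.56, 10.25 and 8.95 in KO 4, against 2.395, 2.195 and 2.92 in WT 1. The seminal vesicle genes Svs2, Svs4, Svs5 and Svs6 read 6.38, 6.45, 7.425 and 5.21 in WT 1, against 2.03, 2.055, 2.58 and 1.51 in KO 4. Lcn8, Lcn9, Adam28, Rnase10 and Cst11 were low in both. Immediate early genes were high in KO 1 (mean 6.58) and KO 2 (6.64), and less so in KO 3 (5.84). Their mean was 5.04 and 5.32 in KO 4 and KO 5, and 4.93 to 5.36 in WT arrays. Not every gene of the list followed, as Ier3 was lowest in KO 2 and Nr4a2 in KO 1 lay inside the WT range. The erythroid gene Slc4a1 read 4.72 and 5.28 in KO 1 and KO 2 and at most 3.11 elsewhere. It was the only 1 of 9 listed erythroid genes that was measured, and it lay below the level filter. The median over the tested genes was 5.929 in KO 5, against 6.035 to 6.068 in the other arrays. The adipocyte markers were strongly detected throughout, with list means of 10.12 to 10.63 in KO and 10.45 to 10.67 in WT. Of the 10 measured markers, Plin4 (-0.51) and Pparg (-0.47) read lower in every KO array than in any WT array, as 5.54% of all tested genes did. Their adjusted p in limma was 0.221 and 0.331. For the other markers the groups overlapped.

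Of the 44 proteasome genes, 39 passed the level filter, 17 with a positive and 22 with a negative difference. None of the 39 had an unadjusted p under 0.05 in limma, where 10.5% of all tested genes did, and none passed the adjusted threshold (0% of all tested genes). The smallest unadjusted p among them was 0.158. In none of the 39 did the KO and WT arrays separate without overlap, which 8.53% of all tested genes did (2.99% with KO higher and 5.54% with KO lower). The differences ran from -0.25 (Psma6) to 0.31 (Psme2), with a median of -0.026 beside -0.028 over all tested genes, and a median absolute size of 0.0863 beside 0.153.

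The intervals show what size of change these arrays could still hold. For 34 of the 39 genes (87.2%) the 95% interval of the difference lay within a 1.5-fold change in either direction, and for all 39 within a 2-fold change. The same shares over all tested genes were 57.7% and 91.3%. The exceptions at 1.5-fold were Psma1, Psma6, Psmb8, Psmd10 and Psme2. In whole fat, fewer cells of a type and less RNA per cell cannot be told apart, so an interval refers to the tissue and not to the adipocyte.

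**Figure D1:**
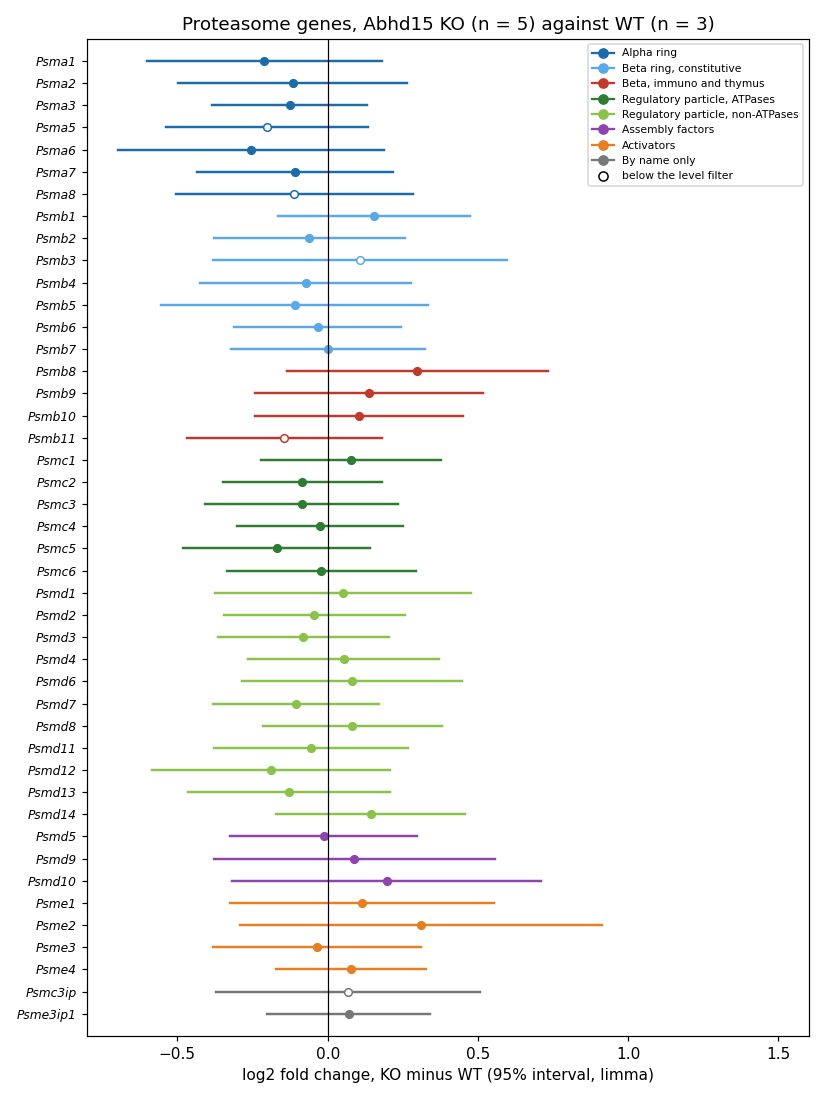
Log2 fold change (KO minus WT, horizontal axis) with its 95% interval from limma for each of the 44 proteasome genes, coloured by structural group; open circles mark genes below the level filter, whose values come from the fit without that filter. Every interval includes 0, and the tested genes lie between -0.25 and 0.31.

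The alpha ring forms the gate of the core particle. All 5 tested members, Psma1, Psma2, Psma3, Psma6 and Psma7, had negative differences (median -0.126, range -0.25 to -0.11), and none had an unadjusted p under 0.05. Psma6 read 8.34, 8.25, 8.21, 8.12 and 7.71 in KO 1 to KO 5, against 8.82, 8.21 and 8.11 in WT 1 to WT 3 (-0.25, SE 0.198, adjusted p = 0.686 in limma). Psma1 read 7.23, 7.13, 7.05, 7.21 and 7.12 in KO mice, against 7.84, 7.13 and 7.11 in WT mice (-0.21, SE 0.175, adjusted p = 0.704 in limma). In both genes WT 1 alone was high, and the other WT arrays lay among the KO arrays.

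WT 1 was the highest of the 8 arrays for all 5 tested alpha subunits, and its mean deviation from the genes' own means was 0.398. Without WT 1 the median of the ring was -0.034, Psma1 stood at 0.032 and Psma7 at 0.022. WT 1 is also the array with the highest mean of the germ cell genes. Of these, Tnp1 and Prm1 read 6.91 and 6.48 in WT 1, and 3.84 and 4.20 in KO 4, their highest KO array. They read 4.88 and 4.11 in WT 2, and 2.655 and 2.895 in WT 3. Of the other germ cell genes, Odf1 and Dazl were highest in KO 1, Hspa1l in KO 3, Tcp11 in WT 2 and the rest in WT 1. The seminal vesicle genes Svs2, Svs4 and Svs6 were also high in WT 1 alone. The mean deviation of the alpha subunits was 0.008 in KO 4, -0.032 in WT 2 and -0.059 in WT 3. The part of the germ cell and seminal vesicle transcripts in the alpha subunit values was not tested. Psma2 had a single low array, KO 5 (7.33), while the other KO arrays read 7.91 to 7.99 and the WT arrays 7.85 to 8.09.

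Of the constitutive beta subunits 6 of 7 were tested, 2 with a positive and 4 with a negative difference (median -0.047). Psmb1, a structural subunit of the ring, had the smallest unadjusted p (0.304). It read 8.84, 9.09, 8.83, 8.68 and 8.55 in KO 1 to KO 5, against 8.75, 8.55 and 8.62 in WT 1 to WT 3 (0.15, SE 0.143). KO 1 to KO 3 lay above the WT arrays and KO 5 just below them. Psmb2 (-0.062) and Psmb4 (-0.073), also structural, differed by less than their standard errors of 0.143 and 0.158. KO 5 was the lowest array for Psmb4, at 5.99 against 6.48 to 6.60 in the other KO arrays and 6.39 to 6.63 in the WT arrays.

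The catalytic subunits of the constitutive core had differences between -0.11 and 0.0013. Psmb5, which carries the chymotrypsin-like activity, read 6.86, 7.03, 6.53, 6.81 and 6.18 in KO 1 to KO 5, against 7.02, 6.58 and 6.77 in WT 1 to WT 3 (-0.11, SE 0.199, 95% interval -0.55 to 0.33). Psmb6, the caspase-like subunit, read 7.32, 7.28, 7.19, 7.07 and 6.98 in KO mice, against 7.27, 7.20 and 7.12 in WT mice (-0.033, interval -0.31 to 0.25). Psmb7, the trypsin-like subunit, read 8.73, 8.61, 8.46, 8.23 and 8.43 in KO mice, against 8.64, 8.52 and 8.32 in WT mice (0.0013, interval -0.32 to 0.33). The KO arrays spanned the whole WT range in all 3 genes, with KO 1 and KO 2 at the upper end. Their unadjusted p ran from 0.594 to 0.993 in limma.

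All 5 genes of the immunoproteasome had positive differences (median 0.139), and none had an unadjusted p under 0.05. Over all tested genes 44.8% had a positive difference. Psmb8 and Psmb9 lie on chromosome 17 beside Tap1 and Tap2, which carry peptides to MHC class I molecules, and Psme1 and Psme2 lie close together on chromosome 14. The promoters of the immuno subunits Psmb8 and Psmb9, of the constitutive subunits they replace, Psmb5 and Psmb6, and of Psme1 are shown because these genes are known for different switches, interferon for one set and the stress factor NFE2L1 for the other. They are RefSeq windows of build GRCm38.p6 on the gene's own strand, from 250 bases before to 50 after the gene's start, written 5′ to 3′. Capitals mark matches to the 4 motifs searched.
Psmb8, chr17:34197945-34198244, plus strand: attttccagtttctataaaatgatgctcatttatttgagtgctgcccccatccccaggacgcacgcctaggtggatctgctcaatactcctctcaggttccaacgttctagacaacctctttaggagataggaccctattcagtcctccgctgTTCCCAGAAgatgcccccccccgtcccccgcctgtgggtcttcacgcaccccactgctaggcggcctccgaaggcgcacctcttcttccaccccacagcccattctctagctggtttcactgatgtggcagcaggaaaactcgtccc
Psmb5, chr14:54617946-54618245, minus strand: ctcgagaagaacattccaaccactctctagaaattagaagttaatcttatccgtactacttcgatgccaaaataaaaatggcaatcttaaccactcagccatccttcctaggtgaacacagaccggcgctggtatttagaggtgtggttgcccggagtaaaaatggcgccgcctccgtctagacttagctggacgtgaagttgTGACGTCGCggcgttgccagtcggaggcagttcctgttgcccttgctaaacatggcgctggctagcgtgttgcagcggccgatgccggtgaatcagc
Psmb9, chr17:34187281-34187580, minus strand: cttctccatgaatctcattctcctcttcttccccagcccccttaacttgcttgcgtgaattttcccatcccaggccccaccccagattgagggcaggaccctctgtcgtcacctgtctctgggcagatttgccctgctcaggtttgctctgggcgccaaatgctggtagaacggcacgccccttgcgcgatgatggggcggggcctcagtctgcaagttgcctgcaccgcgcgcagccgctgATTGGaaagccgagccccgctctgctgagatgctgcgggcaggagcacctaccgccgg
Psmb6, chr11:70525107-70525406, plus strand: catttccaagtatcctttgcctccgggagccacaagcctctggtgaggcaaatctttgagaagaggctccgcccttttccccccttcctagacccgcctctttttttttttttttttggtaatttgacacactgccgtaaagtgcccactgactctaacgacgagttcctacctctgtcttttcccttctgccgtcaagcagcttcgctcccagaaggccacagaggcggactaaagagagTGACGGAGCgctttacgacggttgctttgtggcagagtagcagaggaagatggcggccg
Psme1, chr14:55578244-55578543, plus strand: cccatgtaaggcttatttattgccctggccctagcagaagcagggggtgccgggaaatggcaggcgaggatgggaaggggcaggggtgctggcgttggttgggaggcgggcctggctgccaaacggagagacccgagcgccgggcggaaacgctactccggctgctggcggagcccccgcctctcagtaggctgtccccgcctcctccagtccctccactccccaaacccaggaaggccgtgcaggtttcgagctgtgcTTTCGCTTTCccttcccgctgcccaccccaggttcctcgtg

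The 4 motifs were searched on both strands in the 41 windows listed for 37 of the 44 genes, and in all 32851 windows of the table. The core of the antioxidant response element, which NFE2L1 and NFE2L2 bind, is TGACNNNGC. It occurred in 6 of the 41 windows (14.6%), those of Psmb5, Psmb6, Psmc6, Psmd9, Psmd12 and Psme4, and in 12.4% of all windows. In Psmb5 and Psmb6 its first base lay at positions -47 and -9 from the gene's start. The core of the interferon-stimulated response element, GAAA followed after any 2 bases by a second GAAA, occurred in the windows of Psmb3, Psmd4, Psmd9 and Psme1, 9.76% of the proteasome windows and 3.44% of all. In Psme1 it is read on the opposite strand and begins at position 10 after the start. The core of the gamma-activated sequence bound by STAT factors, TTCNNNGAA, was found in Psmb8 (position -97) and Psmd2, 4.88% of the proteasome windows against 8.3% of all. The CCAAT box was found in 16 windows (39%, against 37.4% of all), in Psmb9 as ATTGG at position -8. No motif overlapped another in the windows printed. A match is a string of letters in this window and does not show that a factor binds there.

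Psmb8, the immuno counterpart of Psmb5, had the smallest unadjusted p of the 39 genes (0.158). It read 6.85, 6.67, 6.81, 6.22 and 6.19 in KO 1 to KO 5, against 6.19, 6.065 and 6.50 in WT 1 to WT 3 (0.30, SE 0.195, 95% interval -0.14 to 0.73, adjusted p = 0.618 in limma). KO 1 to KO 3 lay above all WT arrays, while KO 4 and KO 5 lay inside the WT range. An alternative fit blocked on replicate number, although the labels do not say that these numbers mark pairs. The block leaves the contrast to the arrays numbered 1 to 3. In this limma fit the difference was 0.53, with an unadjusted p of 0.00799 and an adjusted p of 0.165. The same fit gave 1997 of all tested genes an unadjusted p under 0.05.

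Psmb9 read 4.52, 4.54, 5.05, 4.42 and 4.58 in KO 1 to KO 5, against 4.30, 4.42 and 4.73 in WT 1 to WT 3 (0.14, SE 0.170). KO 3 was the one KO array above the WT range. KO 3 also held the highest mean of 11 lymphocyte markers, 3.65 against 3.23 to 3.37 in the other KO arrays and 3.20 to 3.37 in WT arrays. In it the B cell genes Cd79a and Ms4a1 read 5.31 and 4.07, against at most 3.46 and 2.74 in the other KO arrays and 3.80 and 2.42 in WT arrays. Ptprc and Cd4 were also highest in KO 3. Ncr1 was lowest there (2.585), and Cd3e, Cd3d, Cd3g, Cd8a, Nkg7 and Klrb1c were highest in other arrays. Only 2 of the 11 markers passed the level filter, Ptprc and Cd3e. The part of the markers in the Psmb9 value was not tested.

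Psmb10 read 6.83, 6.98, 6.75, 6.53 and 6.44 in KO 1 to KO 5, against 6.41, 6.68 and 6.72 in WT 1 to WT 3 (0.10, SE 0.155). Psme1 read 7.89, 7.85, 7.71, 7.48 and 7.05 in KO mice, against 7.31, 7.56 and 7.58 in WT mice (0.11, SE 0.197). Psme2 read 5.15, 4.52, 4.82, 5.51 and 5.08 in KO mice, against 4.24, 5.32 and 4.56 in WT mice (0.31, SE 0.271). In Psmb10 and Psme1, KO 1 to KO 3 were above every WT array and KO 4 and KO 5 were not, as in Psmb8, whereas the highest array for Psme2 was KO 4. WT 1 was the lowest of the WT arrays in Psmb9, Psmb10, Psme1 and Psme2. Without WT 1 the median of the 5 genes was 0.047, and Psme2 stood at 0.077. Without WT 2 Psme2 stood at 0.62, with an unadjusted p of 0.0375 and an adjusted p of 0.559 in limma.

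The macrophage markers, 11 of 11 above the level filter, averaged 7.81, 7.74, 7.67, 7.25 and 7.36 in KO 1 to KO 5, against 7.61, 7.71 and 7.69 in WT 1 to WT 3. KO 4 and KO 5 thus had the lowest means. Of the 11 markers, Csf1r was lowest in WT 1, Lyz2 in KO 1 and the others in KO 4 or KO 5. Among the KO arrays alone, KO 4 and KO 5 were also the lowest for Psmb8, Psmb10 and Psme1. Over all arrays of both groups, Psmb8 was lowest in WT 2 (6.065), Psmb10 in WT 1 (6.41) and Psme1 in KO 5 (7.05). The part of macrophage content in these values was not tested.

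**Figure D2:**
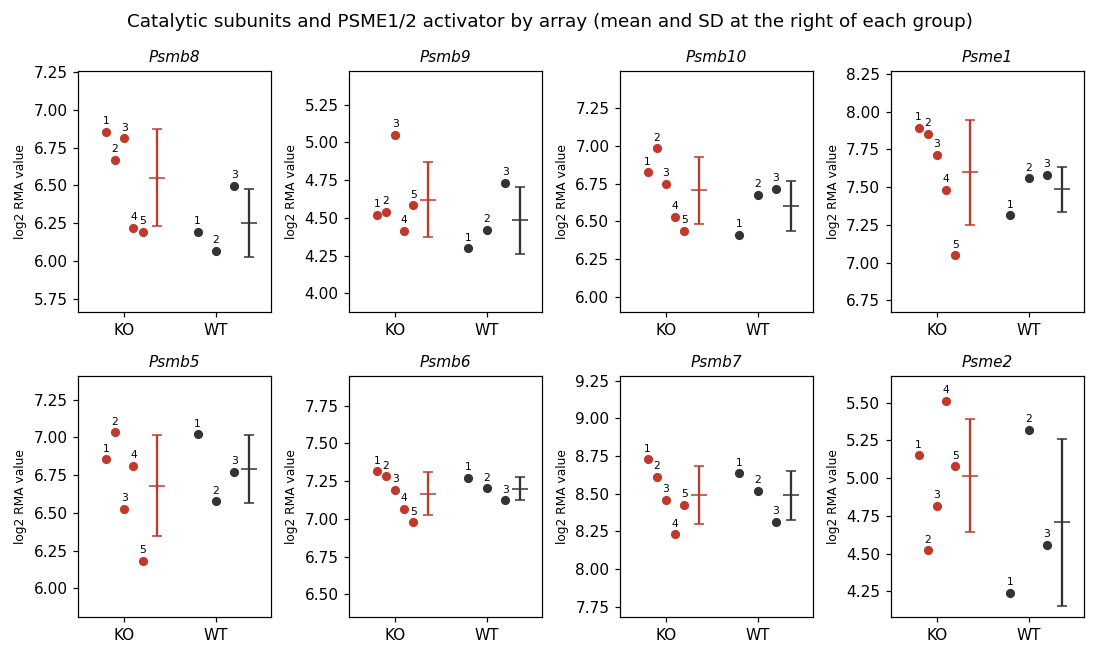
Log2 RMA value (vertical axis, the same span in every panel) of Psmb8, Psmb9, Psmb10 and Psme1 (upper row) and Psmb5, Psmb6, Psmb7 and Psme2 (lower row) in the 5 KO and 3 WT arrays, numbered by replicate, with mean and SD beside each group. KO 1 to KO 3 lie above the WT arrays for Psmb8, Psmb10 and Psme1, and the groups overlap in every panel.

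To set immuno against constitutive subunits, each immuno value was taken minus that of the subunit it replaces, within the array. Only the variation of this difference between arrays is read here, since levels of different probe sets are not comparable. Psmb8 minus Psmb5 was -0.13 ± 0.346 in KO (SD, n = 5) and -0.54 ± 0.278 in WT (SD, n = 3), a change of 0.41. Psmb9 minus Psmb6 was -2.55 ± 0.273 in KO and -2.72 ± 0.296 in WT, a change of 0.17. Psmb10 minus Psmb7 was -1.79 ± 0.151 in KO and -1.89 ± 0.313 in WT, a change of 0.10. All 3 changes were positive, and the KO and WT arrays overlapped in each.

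The mean over the 3 pairs was -1.57, -1.58, -1.19, -1.65 and -1.46 in KO 1 to KO 5, against -2.01, -1.71 and -1.42 in WT 1 to WT 3. Every KO array lay inside or above the WT range, with KO 3 alone above WT 3. The change between the group means was 0.23, beside an SD of 0.181 among KO arrays and 0.293 among WT arrays. It was 0.08 without WT 1, 0.228 without WT 2 and 0.373 without WT 3, and 0.152 to 0.267 when 1 KO array was left out. Leaving out all 3 arrays with testis transcripts (KO 4, WT 1 and WT 2) gave -0.025. WT 3, the highest WT array for this mean, was then the only WT array. No test is given for these differences, since the genes were chosen with results of these arrays known.

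The 6 ATPases of the regulatory particle, Psmc1 to Psmc6, unfold the substrate and push it into the core. Of these, 1 had a positive and 5 a negative difference (median -0.055), and every interval lay within a 1.5-fold change. Psmc5 read 7.12, 7.28, 6.84, 6.98 and 6.96 in KO 1 to KO 5, against 7.30, 7.02 and 7.30 in WT 1 to WT 3 (-0.17, SE 0.139, adjusted p = 0.700 in limma). KO 3 to KO 5 lay below the WT arrays and KO 1 and KO 2 inside their range. Psmc2 read 7.65, 7.48, 7.45, 7.45 and 7.62 in KO mice, against 7.65, 7.48 and 7.72 in WT mice (-0.084, SE 0.119). Its second, dimmer probe set differed by -0.015. Psmc1 (0.079), Psmc3 (-0.086), Psmc4 (-0.026) and Psmc6 (-0.022) differed by less than their standard errors.

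The 11 other subunits of the regulatory particle split into 5 positive and 6 negative differences (median -0.044). All 11 intervals lay within a 1.5-fold change, that of Psmd12 reaching -0.58. Psmd12, a subunit of the lid, read 8.02, 8.11, 7.68, 7.61 and 7.47 in KO 1 to KO 5, against 8.19, 7.94 and 7.77 in WT 1 to WT 3 (-0.19, SE 0.178, adjusted p = 0.748 in limma). Without KO 1 and KO 2 it stood at -0.38, with an unadjusted p of 0.0442 and an adjusted p of 0.509. Psmd14, the enzyme that cuts the ubiquitin chain off the substrate, read 6.09, 6.01, 5.71, 5.63 and 5.99 in KO mice, against 5.82, 5.71 and 5.69 in WT mice (0.14, SE 0.141, adjusted p = 0.762 in limma). In Psmd12 the arrays KO 3 to KO 5 lay below the WT range, and in Psmd14 KO 1, KO 2 and KO 5 lay above it.

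The remaining members of the regulatory particle were nearer to 0. The scaffold subunits Psmd1 and Psmd2 differed by 0.05 and -0.044, and the ubiquitin receptor Psmd4 by 0.053. Psmd11, which helps hold the lid to the core, differed by -0.055 (interval -0.38 to 0.27). The lid subunits Psmd3 (-0.081), Psmd6 (0.081), Psmd7 (-0.11), Psmd8 (0.081) and Psmd13 (-0.13) had unadjusted p between 0.415 and 0.631 in limma. For Psmd7 4 of 5 KO arrays lay below the WT range, but KO 1 was above it. KO 1 was the highest of all 8 arrays for 7 of the 11 genes, and KO 5 the lowest for 5. Over all tested genes KO 1 was the highest array for 17.3% and KO 5 the lowest for 28.9%.

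Psmd5, Psmd9 and Psmd10 help to assemble the ATPase ring and leave the finished complex. Psmd10, also known as gankyrin, read 6.39, 6.05, 6.06, 6.66 and 5.69 in KO 1 to KO 5, against 6.21, 5.57 and 6.14 in WT 1 to WT 3 (0.20, SE 0.231). Psmd9 read 4.61, 5.15, 4.84, 5.38 and 5.57 in KO mice, against 5.00, 4.95 and 5.11 in WT mice (0.089, SE 0.210). The KO arrays of Psmd9 spread to both sides of the narrow WT range, with KO 1 lowest and KO 5 highest. Psmd5 differed by -0.013 (SE 0.140).

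Psme3 and Psme4 encode caps that work without the ubiquitin tag, and Psme4 is best known for histone breakdown in the testis. Psme4 read 7.98, 8.04, 8.09, 7.91 and 7.87 in KO 1 to KO 5, against 7.96, 7.87 and 7.87 in WT 1 to WT 3 (0.077, SE 0.112, adjusted p = 0.844 in limma). KO 1 to KO 3 were above the WT arrays and KO 5 just below them, and the interval reached no further than 0.33. Psme3 differed by -0.035 (SE 0.155). Psme3ip1, a partner protein of Psme3 and not a subunit, differed by 0.07 (SE 0.122).

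The 5 genes below the level filter were fitted without it. Psma5 and Psmb3 encode subunits found in every core particle, and why their probe sets read low was not tested. Psma5 read 2.56, 2.50, 2.97, 2.87 and 2.80 in KO 1 to KO 5, against 2.81, 2.86 and 3.15 in WT 1 to WT 3 (-0.20, SE 0.151), and its second probe set differed by -0.16. Psmb3 read 3.68, 3.96, 3.48, 3.17 and 3.86 in KO mice, against 3.64, 3.09 and 3.84 in WT mice (0.11, SE 0.219). In both genes the KO and WT arrays overlapped.

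Psma8, the alpha subunit of spermatocytes, read 2.46, 2.90, 2.21, 2.38 and 2.18 in KO mice, against 2.54, 2.70 and 2.37 in WT mice (-0.11, SE 0.177). The highest arrays were KO 2, WT 2 and WT 1, all at low signal. Psmb11, the beta subunit of thymic epithelium, read 2.08, 2.03, 2.26, 2.14 and 2.45 in KO mice, against 2.43, 2.48 and 2.10 in WT mice (-0.14, SE 0.145). Psmc3ip, a factor of meiotic recombination, read 3.57, 2.62, 2.95, 2.85 and 3.20 in KO mice, against 3.05, 2.94 and 2.92 in WT mice (0.067, SE 0.197). None of the 5 had an unadjusted p under 0.05 in that fit, in which 8.44% of 22180 genes did.

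What the subunits shared was variation between mice of the same genotype. Among the 38 tested subunits and assembly factors, 33 were above their own 8-array mean in KO 1 and 26 in KO 2, but 13 in KO 3, 11 in KO 4 and 12 in KO 5. In the WT arrays 30 were above their mean in WT 1, 15 in WT 2 and 18 in WT 3. As shares this is 86.8%, 68.4%, 34.2%, 28.9% and 31.6% in KO 1 to KO 5, and 78.9%, 39.5% and 47.4% in WT 1 to WT 3. Over all tested genes the shares were 57.1%, 50.6%, 51.5%, 45.5% and 38.8% in KO 1 to KO 5, and 53.7%, 53.9% and 52.7% in WT 1 to WT 3. KO 1 was the highest array for 16 of the 38 genes (42.1%, against 17.3% of all tested genes) and WT 1 for 11 (28.9%, against 18.1%). KO 5 was the lowest for 14 (36.8%), near its share of 28.9% over all tested genes.

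**Figure D3:**
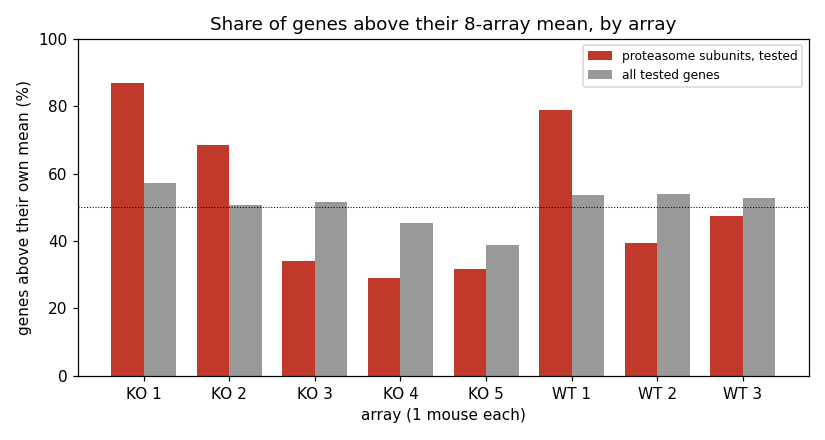
Percentage of genes above their own mean over the 8 arrays (vertical axis), for the 38 tested proteasome subunits and assembly factors and for all tested genes, in each array. KO 1 (86.8%), WT 1 (78.9%) and KO 2 (68.4%) stand high for the proteasome, KO 3 to KO 5 stand at 28.9% to 34.2%, and all tested genes stay between 38.8% and 57.1%.

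The subunits of 1 array thus tended to lie on the same side, and both genotypes held a high array. The median deviation of the 38 genes was 0.157 in KO 1, 0.142 in WT 1 and -0.136 in KO 5. Over all tested genes it was 0.046, 0.023 and -0.088 in these arrays. KO 1 and KO 2 are the arrays with the highest mean of immediate early genes, followed by KO 3. WT 1 is the array with the most testis signal, and KO 5 has the lowest median over all tested genes. The part of these traits in the deviations was not tested. Without WT 1, 28 of the 39 tested proteasome genes were higher in KO, and without WT 2, 14 were. The immuno beta subunits and the assembly factors departed from the rest in some arrays. WT 1 was the lowest array for 2 of the 3 tested immuno beta subunits. Their median deviation had the sign of the 38 genes in KO 1, KO 2, KO 4, KO 5 and WT 2. It had the opposite sign in WT 1 (-0.254), KO 3 (0.374) and WT 3 (0.061). Psmd5 and Psmd9 were highest in KO 5 and Psmd10 in KO 4.

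**Figure D4:**
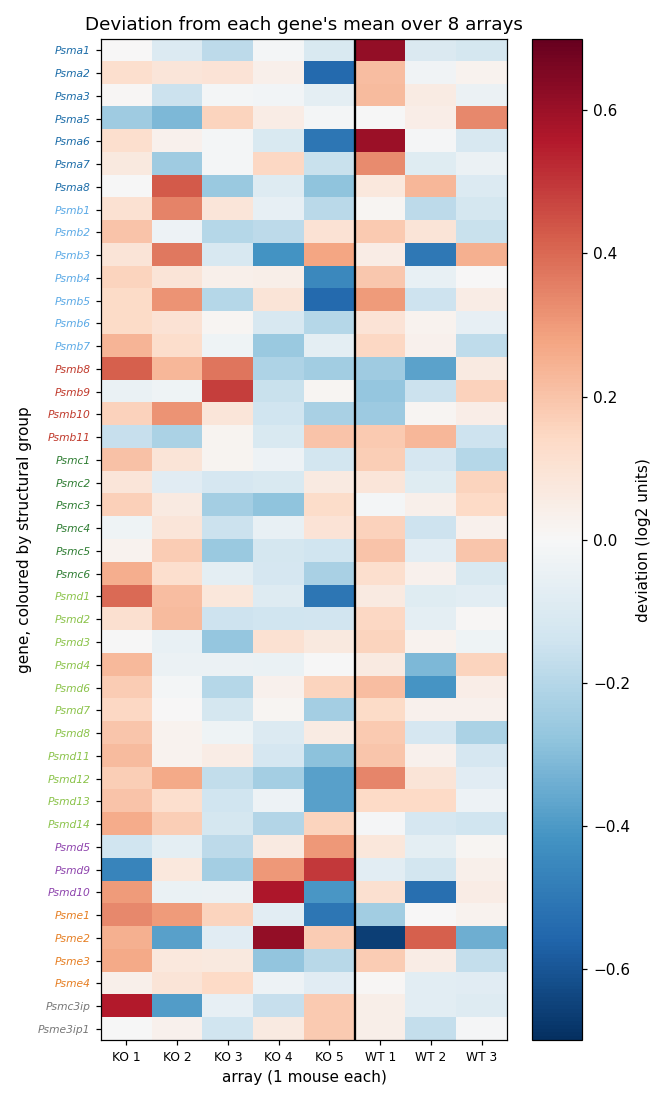
Deviation of each of the 44 proteasome genes (rows, names coloured by structural group) from its mean over the 8 arrays, in log2 units, with KO arrays left and WT arrays right of the black line. The columns of KO 1 and WT 1 are mostly above the mean (red) and that of KO 5 mostly below (blue), while Psmb8 to Psmb10 are below it in WT 1.

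Genes that work with the proteasome were read from 4 further lists. Of 17 tested assembly factors and partners, 7 had a positive and 10 a negative difference, and none had an unadjusted p under 0.05. The groups did not overlap in 2 of the 17 (11.8%, against 8.53% of all tested genes). One is Psmg1, a chaperone of alpha ring assembly, at 6.36, 6.33, 6.37, 5.82 and 5.30 in KO 1 to KO 5, against 6.41, 6.40 and 6.38 in WT 1 to WT 3 (-0.36, SE 0.241, adjusted p = 0.622 in limma). KO 1 to KO 3 were barely below the WT arrays and KO 4 and KO 5 far below. The other is Rad23b, a shuttle that brings tagged proteins to the proteasome (-0.21, SE 0.116). The proteasome-bound thioredoxin Txnl1 (-0.32, SE 0.159) had the smallest unadjusted p of the list (0.0727), and the shuttle Ubqln1 differed by -0.24 (SE 0.164). Pomp, the maturation factor of the core, differed by 0.011 (SE 0.202).

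Of the 8 tested genes of the NFE2L1 route, by which cells make more proteasomes when degradation fails, 3 had a positive and 5 a negative difference. None had an unadjusted p under 0.05, and 2 of the 8 (25%, against 8.53% of all tested genes) did not overlap between groups. Nfe2l1, the transcription factor itself, differed by 0.034 (SE 0.130), and Nfe2l2 by -0.098 (SE 0.155). Syvn1, a ubiquitin ligase of the endoplasmic reticulum, read 6.28, 6.46, 6.05, 6.33 and 6.02 in KO mice, against 6.49, 6.56 and 6.51 in WT mice (-0.29, SE 0.135, adjusted p = 0.488 in limma), and all KO arrays lay below the WT arrays. Sel1l, the partner of Syvn1, was at -0.24 (SE 0.115), also without overlap, while Vcp, the ATPase that extracts proteins from the endoplasmic reticulum, was at -0.28 (SE 0.159) by its brighter probe set and at 0.037 when both its probe sets were averaged. Ufd1 and Nploc4, cofactors of Vcp, differed by 0.019 and -0.0093. Ngly1, which activates NFE2L1 by removing its sugars, was at 0.14 (SE 0.148).

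Of the 9 ubiquitin genes listed, only 4 had a value here, all of them conjugating enzymes, and these were tested. Among them, 1 had an unadjusted p under 0.05 in limma (10.5% of all tested genes). It was Ube2n, at 5.60, 6.12, 5.98, 5.97 and 6.00 in KO 1 to KO 5, against 6.37, 6.44 and 6.11 in WT 1 to WT 3 (-0.37, SE 0.149, unadjusted p = 0.0317 and adjusted p = 0.425 in limma). KO 2 lay just above WT 3, and the other KO arrays lay below the WT range. Ube2d3 (-0.20), Ube2l3 (0.054) and Ube2k (-0.044) had unadjusted p of 0.221 or more.

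The genes that interferon induces together with the immunoproteasome were of mixed sign. Of 17 tested genes of the interferon response and MHC class I loading, 6 had a positive and 11 a negative difference (median -0.028), and 1 had an unadjusted p under 0.05, where 10.5% of all tested genes did. This was Nlrc5, the activator of MHC class I genes, at 4.34, 4.60, 4.98, 4.60 and 4.47 in KO mice, against 4.81, 4.95 and 5.20 in WT mice (-0.39, SE 0.165, unadjusted p = 0.0398 and adjusted p = 0.450 in limma). The interferon-induced GTPase Igtp was also negative (-0.44, SE 0.210). Tapbp, which loads peptides onto MHC class I (0.30, SE 0.154), and the chemokine Cxcl9 (0.55, SE 0.281) were positive. Tap1 and Tap2, the neighbours of Psmb8 and Psmb9, differed by -0.017 (SE 0.180) and -0.055 (SE 0.119). The mean over all 19 measured genes of the list was 5.36 to 5.65 in KO arrays and 5.42 to 5.75 in WT arrays. It includes Cxcl10 and Ifng, which lay below the level filter.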

How the data were processed

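RNA of 8 fat pads, 1 mouse each, was measured on Mouse Gene arrays. The authors deposited log2 values for every probe set of each array, computed with RMA per the submitters' processing notes, which also name oligo, while the series design text names Expression Console. No version or genome build is stated there. The log2 values were used as deposited by the authors. Medians over the 41345 probe sets were 2.93 to 3.12 per array. Precision is limited by how few arrays there are.

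Probe sets with 1 gene symbol (23521) were named from the platform annotation, which can be old, and updated by Entrez identifier through a table of assembly GRCm38.p6 (23328 matched). Those with several symbols (1814) or none listed (16010) were not used. Genes with a mean at or above 3.61 were tested in limma 3.58.1 (R 4.3.3; lmFit, eBayes, two-sided, Benjamini-Hochberg over 11090 genes), a procedure tested on simulated data. Proteasome genes got no test as a set. Exact permutation over the 56 divisions of 5 and 3 arrays cannot give a two-sided p below 0.0357. Values in every array are given for the catalytic and immuno subunits, Psme1, Psme2, up to 2 genes per structural group and 4 per partner list by p, and genes below the filter. The genes and lists were chosen with earlier results of these data known.

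KO and WT share replicate numbers 1 to 3. After subtracting group means, arrays with the same number correlated at 0.133, 0.103 and 0.192, all above 0.1, so an alternative fit blocked on this number. One unmatched pair, KO 1 with WT 2, reached 0.105, above the 0.103 of KO 2 with WT 2. The labels do not say that the numbers mark pairs. Promoters come from RefSeq (GRCm38.p6). Figures used matplotlib 3.10.9 in Python 3.11.15.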

Additional observations from a re-analysis of the deposited data

Results flagged for a closer look

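In 4 of 48 checks of the KO group (44 genes, the 3 immuno minus constitutive differences and their mean), 1 array lay far from the other 4 for its gene. Chance alone does this in about 1 of 20 groups. Psma2 read 7.329 in KO 5, against 7.906 to 7.988 in the other KO arrays. Psmb4 read 5.993 in KO 5, against 6.479 to 6.60. Psmb9 read 5.051 in KO 3, against 4.415 to 4.582. Psmd4, the ubiquitin receptor, read 8.061 in KO 1, against 7.785 to 7.83. KO 5 is the array with the lowest median over all tested genes.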

How the results depend on the processing

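No proteasome gene passed the adjusted threshold under any of the 18 alternatives. The count with an unadjusted p under 0.05 was 1 with the replicate block (Psmb8), 1 without KO 1 and KO 2 (Psmd12) and 0 to 1 when 1 array at a time was left out (Psme2 without WT 2). The block changed no other call among the proteasome genes. Between 14 and 28 proteasome genes were higher in KO when 1 array was left out, 28 of them without WT 1. Leaving out KO 4, WT 1 and WT 2 keeps WT 3 as the only WT array, so every difference in that fit is against 1 mouse. In it the median of the constitutive beta subunits was 0.12 and the mean immuno minus constitutive change -0.025. With the block the median of the assembly factors was -0.139. Over all genes, the unadjusted count was 1871 without the level filter, 1873 with array weights, 1997 with the block, 329 without KO 4, WT 1 and WT 2, and 745 (without WT 1) to 1596 (without KO 5) when 1 array was left out. The adjusted count was 40 with array weights, 3 with a trended and robust prior, 2 with the block and 0 to 5 when 1 array was left out. Of the unadjusted calls 38.5% were higher in KO, 48.7% with arrays centred and 54.5% after quantile normalization. Single genes changed sign in 92 of 1088 comparisons, by values up to 0.217, and the cause was not tested. Without KO 4, WT 1 and WT 2 the opposite sign was taken by Psma1 0.025, Psma6 0.021, Psma8 0.065, Psmb2 0.17, Psmb3 -0.093, Psmb6 0.068, Psmb9 -0.058, Psmb11 0.10, Psmc6 0.12, Psmd2 0.0075, Psmd4 -0.12, Psmd6 -0.014, Psmd9 -0.071, Psmd10 -0.098, Psmd11 0.12, Psmd12 0.050, Psme3 0.22 and Ube2k 0.13. With array weights the opposite sign was taken by Psma2 0.0035, Psmb4 0.033, Psmb5 0.042, Psmb6 0.029, Psmc4 0.0012, Psmc6 0.053, Psmd2 0.025, Psmd9 -0.00080, Psmd11 0.035 and Psme3 0.055. With the replicate block the opposite sign was taken by Psma2 0.025, Psmb4 0.047, Psmb5 0.014, Psmb6 0.064, Psmc6 0.087, Psmd2 0.036, Psmd9 -0.15, Psmd11 0.065 and Psme3 0.11. Without KO 1 and KO 2 the opposite sign was taken by Psmb3 -0.018, Psmb7 -0.12, Psmb10 -0.029, Psmc1 -0.00030, Psmd1 -0.14, Psmd5 0.053, Psme1 -0.069, Ube2l3 -0.025 and Ube2k 0.050. With each array centred on its median the opposite sign was taken by Psmb6 0.00080, Psmc4 0.0073, Psmc6 0.011 and Psmd5 0.021. After quantile normalization the opposite sign was taken by Psmb6 0.0031, Psmc4 0.0038, Psmd5 0.032 and Psme3 0.0089. With probe sets of a gene averaged the opposite sign was taken by Vcp 0.037. Leaving out 1 array at a time, the genes whose sign turned ranged as follows: Psma1 -0.34 to 0.032, Psma2 -0.16 to 0.0091, Psma7 -0.18 to 0.022, Psmb2 -0.16 to 0.0098, Psmb3 -0.11 to 0.27, Psmb4 -0.12 to 0.034, Psmb5 -0.22 to 0.016, Psmb6 -0.071 to 0.015, Psmb7 -0.086 to 0.073, Psmc3ip -0.065 to 0.17, Psmc4 -0.11 to 0.046, Psmc6 -0.088 to 0.032, Psmd1 -0.044 to 0.18, Psmd2 -0.10 to 0.014, Psmd4 -0.088 to 0.15, Psmd5 -0.090 to 0.032, Psmd6 -0.10 to 0.21, Psmd8 -0.0030 to 0.20, Psmd9 -0.026 to 0.21, Psmd10 -0.0068 to 0.32, Psmd11 -0.13 to 0.024, Psme3 -0.13 to 0.043 and Ube2k -0.16 to 0.15.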
